A study of Mus musculus with 18 samples.

Results

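The SP minus nonSP difference that 9 pairs of arrays from 3 mouse lung carcinoma cell lines had in common was examined gene by gene. Each pair joined the side population (SP) and nonSP array of 1 title line and 1 replicate number, and the mean difference gave equal weight to 3 sets of 3 pairs. The genes described were selected on these differences themselves, as those with 1 sign in at least 8 of 9 pairs. They were 1009 of 10916 genes tested, of 18193 on the array. SP was higher for 687 of them, which is 6.29% of the genes tested, and lower for 322, which is 2.95%. Because the differences chose the genes, their values are given as a description. Where a p-value for such a difference is printed, nothing is concluded from it.

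All 3 lines, A2C12, betaD5 and cRAF_cMYC, were established from tumours that had formed in the lungs of mice carrying both a c-myc and a c-raf transgene, at 8 months of age, and became transformed without further manipulation. Both transgenes are therefore shared by the SP and the nonSP groups, and no line without them was compared. The 6 groups, SP and nonSP cells of each line, held 3 arrays each. The cells were grown in serum-containing medium with no drug treatment named, and the promoters of the transgenes, the gate of the sort and the clonality of the lines are not given in the sources used here. The labels do not say whether the numbered replicates were separate cultures or sorts, and the p-values measure the spread between these arrays, which may be technical only.

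The titles did not match how the arrays resembled each other, which is why the pairs had been regrouped. Set A held A2C12 1, 2 and 3, set B held betaD5 1 with cRAF_cMYC 1 and 2, and set C held betaD5 2 and 3 with cRAF_cMYC 3. The nonSP arrays correlated across genes at 0.973 to 0.988 within these sets and at 0.852 to 0.923 between them. Lines are therefore named as labelled, and the sign counts and the mean over 9 pairs do not depend on the sets. The SP arrays of betaD5 2 and betaD5 3 also had a raised signal at the 3' end of control transcripts relative to the 5' end, the usual sign of shortened RNA on arrays of this type. Their ratios exceeded those of their nonSP partners by 0.66 and 0.93 log2 units for Gapdh and by 0.88 and 0.79 for Actb. In the other 7 pairs the Gapdh change lay between -0.56 and 0.13 and the Actb change between -0.43 and 0.33. The lowest values were those of cRAF_cMYC 2, where the nonSP array had the higher ratio. It read 0.56 for Gapdh and 0.74 for Actb, against 0.0 and 0.31 on the SP array. Array medians ran from 5.80 to 6.72 log2 units. Epcam and Krt8, epithelial markers, lay at medians of 9.0 and 8.76, and Sftpc and Scgb1a1, which define alveolar type II and club cells, at 5.85 and 4.53, below the mean of 6.53 needed for testing. Cdh1 passed that level on 2 of 18 arrays. Vim and Col1a1, typical of mesenchymal cells, lay at 14.17 and 11.74, and Ptprc and Pecam1, of leukocytes and endothelium, at 3.85 and 4.69.

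Side population cells are recognised by flow cytometry as cells that retain little of the DNA dye Hoechst, mainly because ATP-binding cassette transporters such as Abcg2 pump it out. In tumours the fraction has been studied as a candidate source of cells with stem-like behaviour and drug resistance. Stress programmes matter in this setting: the heat shock response, driven by Hsf1, induces chaperones when proteins misfold, and the hypoxia response, driven by hypoxia-inducible factors, induces genes of glucose uptake and metabolism when oxygen is scarce.

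The common differences were small. Among the genes that were higher in SP the median difference was 0.18 log2 units, with an interquartile range of 0.13 to 0.23 and a range of 0.02 to 0.57. Among the lower genes the median was -0.14 and the range -0.78 to -0.01. Over all genes tested the median was 0.01. Only 5 of the higher and 2 of the lower genes exceeded 0.5 in size. In 9 of 9 pairs, 107 genes were higher and 36 lower.

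**Figure D1:**
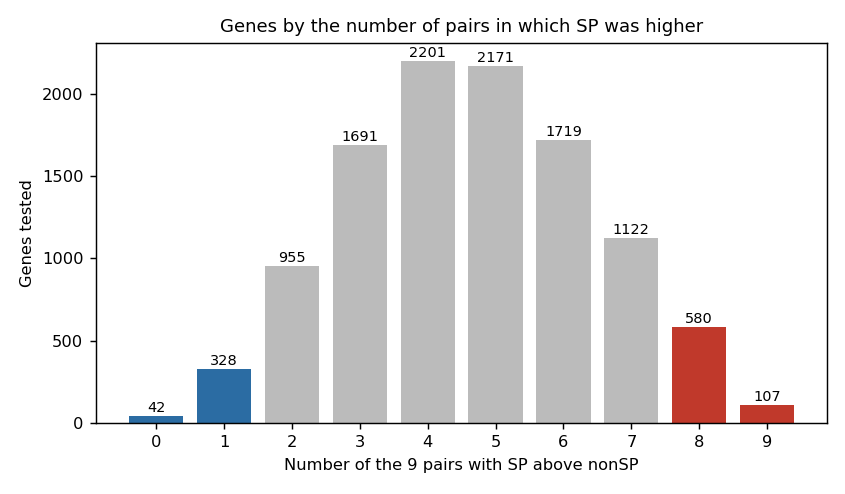
Number of genes tested (vertical axis) by the number of the 9 pairs in which SP lay above nonSP (horizontal axis); red bars hold the 687 genes higher in at least 8 pairs, and blue bars hold the genes higher in 0 or 1 pair. The blue bars add up to more than 322 because a pair difference of exactly 0 counts for neither direction. The bar at 9 pairs holds 107 genes, and the tallest bar, at 4 pairs, holds 2201.

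The size of the difference was uneven over the sets. The higher genes had a median of 0.09 in set A, 0.16 in set B and 0.26 in set C, and the lower genes -0.11, -0.13 and -0.18. The pair betaD5 2 had the largest medians, 0.40 and -0.27, and the pair A2C12 1 the smallest, 0.06 and -0.08. A2C12 1 was also the most frequent exception: of the genes higher in exactly 8 pairs, 203 were lower or equal there, against 3 in betaD5 2. The 3' to 5' ratio rose most in the 2 pairs betaD5 2 and betaD5 3, and its part in these medians and sign counts was not tested. In the limma fit for the mean over sets, 0 genes were called with the ratio as a covariate, against 37 without it. An unadjusted p under 0.05 was found for 1608 and 1798 genes. When betaD5 2 and betaD5 3 were left out, 189 genes were higher and 119 lower in 7 of the 7 others, of which 183 and 102 were among the 687 and 322.

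**Figure D2:**
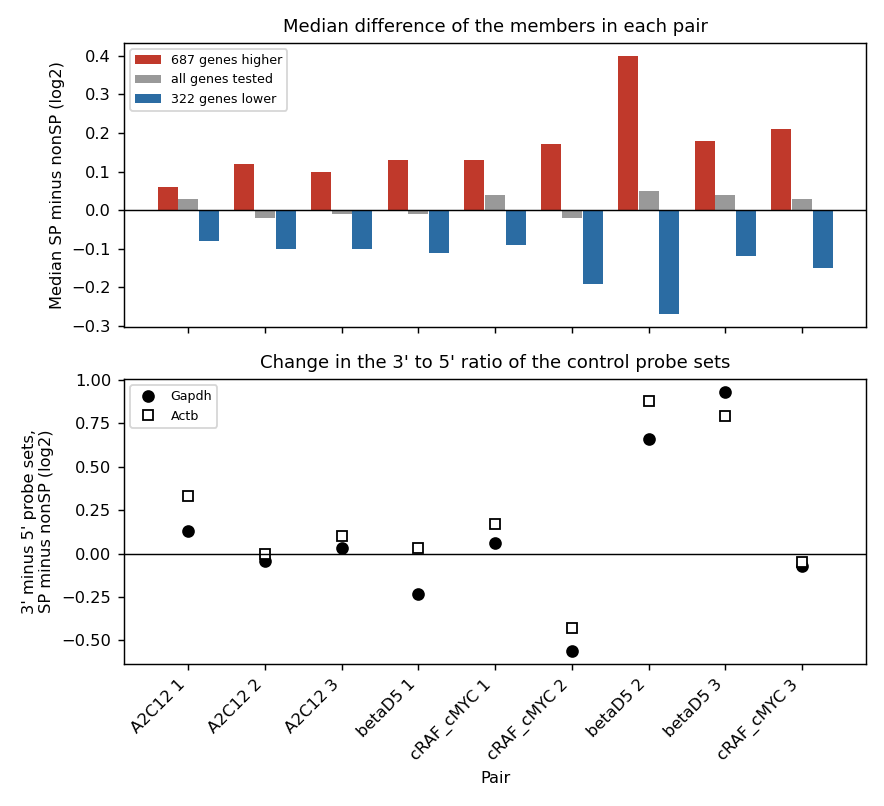
Upper panel: median SP minus nonSP difference (log2, vertical axis) in each pair for the 687 higher genes (red), all genes tested (grey) and the 322 lower genes (blue). Lower panel: change from nonSP to SP in the 3' to 5' log2 ratio of the control probe sets of Gapdh (filled circles) and Actb (open squares). The medians are farthest from 0 in betaD5 2, at 0.40 and -0.27. The ratio is raised most in betaD5 2 and betaD5 3 and falls most in cRAF_cMYC 2.

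Genes picked in 2 sets, as those of 1 sign in 6 of 6 pairs, were also read in the third set. Limma's moderated test was used on all 10916 genes, with Benjamini-Hochberg adjustment at 0.05. The signs and differences of the third set had not chosen these genes. The p-values were not independent of the choice, because the spread came from 1 fit over all pairs, including those that chose the genes. Genes of 1 sign in 6 of 6 pairs may vary less there, so their p-values may be too small. Whether chosen genes are called more often than others is therefore not decided by this test, and the calls are given as a description. In set B, 3 genes were called (0.0275%), which were Hspa1a, Col14a1 and Kcnk5. Hspa1a, an inducible Hsp70 chaperone, was the 1 gene among them that had been chosen in sets A and C. It fell by 1.12 log2 units in set B (limma adjusted p = 0.0339), in 3 of 3 pairs. In set A no gene was called (0%; 271 had an unadjusted p under 0.05), and so none of the genes chosen in sets B and C was called there.

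In set C, SP was higher for 508 genes called (4.65%) and lower for 98 (0.898%). Of 256 genes higher in all pairs of sets A and B, 34 rose in set C (13.3%), and of 196 lower genes 4 fell (2.04%). The p-values of the genes named next may be too small, as stated above, and are a description. The genes that rose included the zinc finger genes Zfp943, by 0.72 (limma adjusted p = 0.00634), and Zfp157, by 0.72 (0.00728). They also included Kdm5a, a demethylase of histone H3 lysine 4, by 0.62 (0.00797), and Snhg1, a noncoding host transcript of small nucleolar RNAs, by 0.47 (0.0127). Arntl, the clock transcription factor BMAL1, rose by 0.49 (0.0197), and Grpel2, a co-chaperone of the mitochondrial Hsp70, by 0.48 (0.0466). The genes that fell were 4921531C22Rik, Hsd17b10, a mitochondrial dehydrogenase, Rras, a small GTPase, and Tspo, a protein of the outer mitochondrial membrane, by 0.54, 0.38, 0.38 and 0.27. Set C holds the 2 pairs with the raised 3' to 5' ratio, and the counts depended on the scaling: with quantile normalization 15 of 288 rose and 5 of 231 fell, where 194 and 71 of all genes did. With arrays centred on their medians 16 of 230 rose and 21 of 254 fell, where 264 and 514 of all genes did.

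Read pair by pair, the agreement was uneven. Of the 256 genes chosen as higher in sets A and B, 85.5% were higher in betaD5 2, where 56.2% of all genes were, and 73.8% in cRAF_cMYC 3, against 55.3%. In betaD5 3 the share was 52.0% against 56.0% of all genes. For genes chosen as higher in sets B and C and read in set A, the share was 60% against 46.2% in A2C12 3 and 55.3% against 45.1% in A2C12 2, but 46.4% against 54.3% in A2C12 1. For those chosen as lower, it was 60.8% against 52.2% in A2C12 3 and 50.9% against 44.6% in A2C12 1, but 44.3% against 54% in A2C12 2. Among the genes chosen as lower in sets A and C, 35.6% were lower in betaD5 1, against 52.0% of all genes.

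A fit over all 9 pairs, with a block for the pair and 1 difference for each set, called 33 genes higher (0.302%) and 4 lower (0.0366%) for the mean over sets. Of the 687 higher genes 23 were among them (3.35%) and of the 322 lower genes 3 (0.932%). Since the same contrast chose the members, nothing is read from these shares. The 10 genes with the smallest p were Tec, Zfp942, Kcnk5, Hspa1a, Ddit4, Pogz, Zfp157, Malat1, Serac1 and Snhg1. Tec, a nonreceptor tyrosine kinase, Ddit4, an inhibitor of mTORC1 signalling, and Malat1, a nuclear noncoding RNA, had 1 sign in 7 of 9 pairs and were no members. Kcnk5, a potassium channel, was higher in 8 of 9 pairs, by 0.50 ± 0.39 (SD over 9 pairs). These calls depended on the settings: limma called 0 genes without both pairs betaD5 2 and betaD5 3 (1362 unadjusted p under 0.05, against 1798), without betaD5 1 and cRAF_cMYC 3 (1389) and with the labelled lines in place of the sets (1437). It called 0 without the block (70) and 6 with quantile normalization. A difference between the sets was called for 0 of 10916 genes by limma's F test (0%; 1658 had an unadjusted p under 0.05), and the smallest adjusted p was 0.0939. The 4 members with the smallest p in that test were Npat, Dennd2c, Zfp943 and Lrif1. Npat, a regulator of histone gene transcription, differed by -0.17, 0.24 and 1.01 in sets A, B and C. Its 1 other probe set had a mean of -0.33 over the 9 pairs.

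The heat shock list had members in both directions. Of 21 tested genes of the list, 8 were higher in SP and 2 lower, against 6.29% and 2.95% of all genes, and the median of the list was 0.11. The lower genes were both inducible Hsp70 genes. Hspa1a lay between 5.35 and 8.53 log2 units on the nonSP arrays, with a median of 7.65, and between 5.18 and 8.38 on the SP arrays, with a median of 6.68. It was lower in SP in all 9 pairs, most in cRAF_cMYC 2 with -1.57 and betaD5 1 with -1.03, and least in A2C12 3 with -0.15. The groups of 3 did not overlap in 1 of the 3 sets. The share of all genes with such a separation was not counted, so nothing is read from it here or for the genes below. The mean difference was -0.62 ± 0.46 (SD over 9 pairs), a ratio of SP to nonSP of 0.651. In cRAF_cMYC 3 both arrays, at 5.35 and 5.18, were below the mean level required for testing.

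Hspa1b, the neighbouring copy, was brighter, with a median of 12.67 on the nonSP arrays and 12.37 on the SP arrays. It was lower in 8 of 9 pairs, by -0.29 ± 0.27, and the exception was betaD5 2 with 0.11. In set B its pair differences were -0.56, -0.63 and -0.59. Its other probe sets, 2 in number and taken whatever their level, each had a mean difference of -0.41. The transcripts are nearly identical, so probe sets may not separate them. The upstream sequences are shown because both copies were lower in SP. They are the 250 bases before the RefSeq start (GRCm38.p6), at chr17:34972157-34972406 for Hspa1a and chr17:34959239-34959488 for Hspa1b, both on the minus strand, and differ at 3 of 250 bases. Capitals mark GAANNTTC, a form of the heat shock element that Hsf1 binds. It was searched on both strands and is its own reverse complement, and it starts 104 bases before the transcript start in both.
Hspa1a: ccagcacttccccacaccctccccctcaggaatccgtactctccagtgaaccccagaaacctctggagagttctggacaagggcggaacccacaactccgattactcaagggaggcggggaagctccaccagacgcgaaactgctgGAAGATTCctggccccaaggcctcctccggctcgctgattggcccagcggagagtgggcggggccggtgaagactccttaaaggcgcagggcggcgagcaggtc
Hspa1b: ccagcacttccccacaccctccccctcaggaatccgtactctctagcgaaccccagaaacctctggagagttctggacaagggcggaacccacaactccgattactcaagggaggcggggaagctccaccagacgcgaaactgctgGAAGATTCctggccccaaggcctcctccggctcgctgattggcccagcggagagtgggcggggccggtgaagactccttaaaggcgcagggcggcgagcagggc

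These letters occurred in 5.25% of 552 promoters of the higher genes, in 3.56% of 253 promoters of the lower genes and in 4.63% of 8863 promoters of all genes tested. The match is a description of the window and shows no binding.

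The 8 heat shock genes that were higher in SP were of other kinds. Hspd1 and Hspe1, the chaperonin and co-chaperonin of mitochondria, differed by 0.11 and 0.12, and Hspe1 was higher in 9 of 9 pairs. Dnaja1, an Hsp40 partner of constitutive Hsp70, differed by 0.09, Hspa4 and Hspa4l, nucleotide exchange factors of Hsp70, by 0.13 and 0.16, and Chordc1, an Hsp90 co-chaperone, by 0.17. Hspb8, a small heat shock protein, differed by 0.14. Hsf2, a heat shock transcription factor, was higher by 0.37 ± 0.49, of which betaD5 2 gave 1.59, and the mean was 0.18 without betaD5 2 and betaD5 3. The 1 other probe set of Hsf2 had a mean of -0.06. Under all 3 scalings tried (as deposited, quantile and centred), 2 of the 8 higher genes and both lower genes kept 1 sign in at least 8 pairs. Outside the list, Grpel2 was higher in all 9 pairs, by 0.42 ± 0.28.

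**Figure D3:**
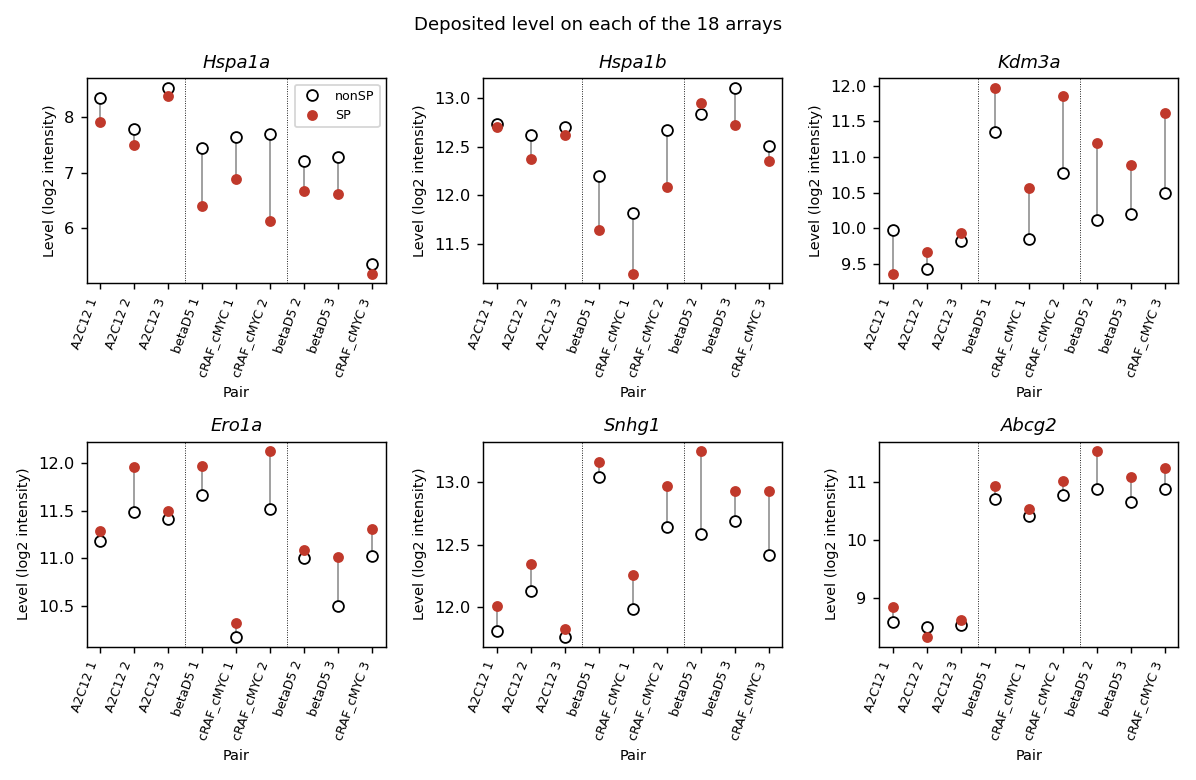
Deposited log2 level (vertical axis) of 6 genes on each array, by pair (horizontal axis); open circles are nonSP arrays, red circles SP arrays, and dotted lines separate sets A, B and C. Hspa1a is lower in SP in all 9 pairs, Hspa1b in 8, Ero1a and Snhg1 are higher in 9, and Kdm3a and Abcg2 in 8.

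All members on the hypoxia list were higher in SP. Of 28 tested genes, 7 were higher in at least 8 pairs (25%) and 0 lower, against 6.29% and 2.95% of all genes. A mean above 0 was found for 24 of them. The median was 0.13, against 0.01 for all genes tested, and 0.12 without betaD5 2 and betaD5 3. Under all 3 scalings 4 of the 7 met the rule. Kdm3a, a demethylase of histone H3 lysine 9, lay between 9.43 and 11.35 log2 units on the nonSP arrays and between 9.36 and 11.97 on the SP arrays, with medians of 10.12 and 10.88. The 6 pairs of sets B and C were higher by 0.62 to 1.12, whereas the A2C12 pairs differed by -0.62, 0.24 and 0.11. The mean difference was 0.56 ± 0.57, a ratio of 1.47.

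Ndrg1, a stress-induced gene often used to report hypoxia, had medians of 10.90 on nonSP and 11.34 on SP arrays. It was higher in 8 of 9 pairs, from 0.10 in A2C12 3 to 1.71 in betaD5 2, and lower by -0.30 in A2C12 1. Its mean was 0.49 ± 0.57, and 0.35 without betaD5 2 and betaD5 3. The other members were Egln3, an oxygen-sensing prolyl hydroxylase, with 0.20, Ak4, a mitochondrial adenylate kinase, with 0.21, Hilpda, a regulator of lipid droplets, with 0.13, and the glucose transporter Slc2a1 with 0.14.

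Ero1a, the oxidase that supplies disulfide bonds in the endoplasmic reticulum, was the member of this list that was higher in all 9 pairs. Its medians were 11.18 on nonSP and 11.31 on SP arrays, and the pair differences ran from 0.09 in A2C12 3 to 0.62 in cRAF_cMYC 2, with a mean of 0.29 ± 0.20. The SP and nonSP arrays overlapped in all 3 sets. Its upstream sequence is shown as the example of a hypoxia gene that was higher in every pair, at chr14:45318573-45318822 on the minus strand (RefSeq, GRCm38.p6). Capitals mark the letters ACGTG, 1 form of the core of the hypoxia response element. They are here read as CACGT from the other strand and start 63 bases before the transcript start. Other forms of the core were not searched and are not marked.
Ero1a: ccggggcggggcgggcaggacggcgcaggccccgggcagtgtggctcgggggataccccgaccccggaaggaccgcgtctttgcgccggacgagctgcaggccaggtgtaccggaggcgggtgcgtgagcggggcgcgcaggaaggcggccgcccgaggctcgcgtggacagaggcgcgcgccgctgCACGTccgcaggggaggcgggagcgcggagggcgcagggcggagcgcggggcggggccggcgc

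ACGTG on either strand occurred in 24.8% of promoters of the higher genes, 21.7% of the lower genes and 22.1% of all genes tested. The window of Kdm3a held 0 matches to ACGTG, the only form searched.

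Ribosome biogenesis genes showed small positive differences. All 27 tested genes of the list had a mean above 0, with a median of 0.12, against 0.01 for all genes tested. The median stayed above 0 at 0.09 with centred arrays. In at least 8 pairs 7 were higher (25.9%) and 0 lower, against 6.29% and 2.95% of all genes. Rrp12, which acts in maturation and export of ribosomal subunits, was higher in 8 of 9 pairs by 0.32 ± 0.30, with medians of 8.42 on nonSP and 8.74 on SP arrays. The exception was betaD5 3 with -0.16. Wdr12 and Pes1, partners in the complex that processes large subunit RNA, differed by 0.24 and 0.18, and Polr1b, a subunit of RNA polymerase I, by 0.22. Wdr43, Wdr75 and Rrs1, further assembly factors, differed by 0.22, 0.16 and 0.21. Of 39 tested structural proteins of the cytosolic ribosome, 0 were higher and 0 lower by the rule, and their median was 0.00. Rpl12 of this list was no member, with 7 of 9 pairs higher, but was called for the mean over sets. It differed by 0.52 ± 0.71 (limma adjusted p = 0.0485), with -0.22, 0.49 and 1.28 in sets A, B and C.

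Translation initiation factors had 5 of 21 higher (23.8%) and 0 lower, against 6.29% and 2.95% of all genes. Eif1a, which helps scan for the start codon, was higher in 9 of 9 pairs by 0.22 ± 0.21, and Eif5b, which joins the subunits, in 8 by 0.24 ± 0.17. Of the integrated stress response, 3 of 23 genes were higher (13.0%) and 0 lower. Cth, which makes cysteine from cystathionine, was higher in 9 of 9 pairs by 0.31 ± 0.21. Its level differed far more between sets than between fractions: in set C the nonSP arrays read 4.53, 4.84 and 4.89, and elsewhere 8.38 to 10.21. The SP arrays of set C read 4.96 to 5.01, so both fractions lay below the mean of 6.53 needed for testing there. Psat1, of serine synthesis, and Cebpg, a partner of ATF4, differed by 0.19 and 0.20. Among 20 chaperones of the endoplasmic reticulum, Herpud1, of protein disposal, was higher in 9 of 9 pairs by 0.26 ± 0.22, and Canx in 8 by 0.02, which turned to -0.01 with centred arrays.

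Host transcripts of small nucleolar RNAs were grouped by the symbol Snhg after their values had been seen. Of 13 tested, 5 were higher (38.5%) and 0 lower, against 6.29% and 2.95% of all genes. Snhg12 had the largest mean among the genes higher in all 9 pairs, 0.51 ± 0.40, a ratio of 1.42. Its medians were 9.78 on nonSP and 10.48 on SP arrays, and its pair differences ran from 0.10 in A2C12 1 to 1.12 in A2C12 2. Snhg1 was higher in all 9 pairs by 0.29 ± 0.19, with medians of 12.42 and 12.93. All 4 of its other probe sets, taken whatever their level, had a mean above 0. Snhg7, Snhg17 and Snhg6 differed by 0.32, 0.20 and 0.15.

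**Figure D4:**
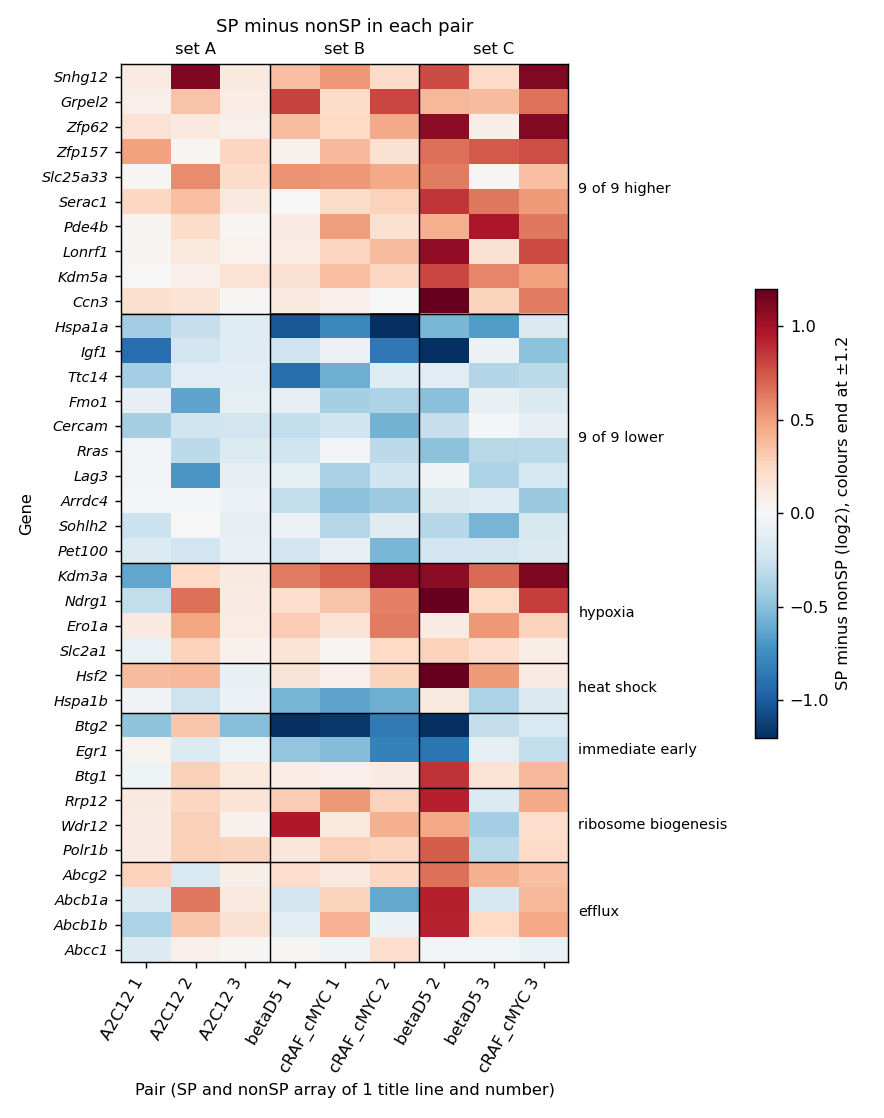
SP minus nonSP difference (log2, colour) of 36 genes (rows) in the 9 pairs (columns), with vertical lines between sets A, B and C. The top 20 rows are the genes of 1 sign in all 9 pairs with the largest means, predicted genes passed over, and the rows below are examples of 5 lists. Kdm3a is red in 8 columns and blue in A2C12 1, with -0.62.

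Of 40 chromatin modifiers, 5 were higher (12.5%) and 0 lower, where 6.29% and 2.95% of all genes were, and 4 of the 5 met the rule under all 3 scalings. Kdm5a was higher in all 9 pairs by 0.32 ± 0.26, with medians of 9.43 on nonSP and 9.79 on SP arrays, although 3 of its 5 other probe sets had the same sign. Kdm5b, of the same family, differed by 0.34 ± 0.48, and Epc1, of the NuA4 acetyltransferase complex, by 0.41 ± 0.35, with 0 of 2 other probe sets of the same sign. Of 34 splicing genes 7 were higher (20.6%), 6 of them under all 3 scalings, and 1, Ccnl2, lower by -0.08 (2.94%). Clk1 and Clk4, kinases that phosphorylate splicing factors, differed by 0.35 ± 0.31 and 0.28 ± 0.34, and were lower in A2C12 1, by -0.34 and -0.38.

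Zinc finger genes named Zfp with a number were also grouped after their values had been seen. Of 212 tested, 29 were higher (13.7%) and 3 lower (1.42%), against 6.29% and 2.95% of all genes. Under all 3 scalings 22 and 1 of these held. Zfp157 was higher in all 9 pairs by 0.39 ± 0.29, with medians of 6.96 and 7.56. Zfp62 was higher in all 9 by 0.41 ± 0.41, with 1.07 and 1.10 in betaD5 2 and cRAF_cMYC 3 and at most 0.45 in the other pairs. The median of the group was 0.07, and 0.04 without betaD5 2 and betaD5 3. Of the other genes higher in all 9 pairs, Slc25a33 is a mitochondrial pyrimidine carrier (0.37 ± 0.24), Pde4b a phosphodiesterase of cyclic AMP (0.34 ± 0.32) and Ccn3 a matricellular protein (0.32 ± 0.47). For Pde4b 3 of 5 other probe sets had the same sign, and 1 had a mean of -0.52. Ccn3 exceeded 0.2 in set C alone, with 1.46, 0.27 and 0.62, where its nonSP arrays read 5.17, 5.69 and 5.37 and those of the other sets 9.31 to 11.71. These nonSP arrays of set C lay below the mean of 6.53 needed for testing, and the SP arrays read 6.63, 5.97 and 5.99. Serac1, which acts in phospholipid exchange between mitochondria and the endoplasmic reticulum, had 0.36 ± 0.27, and Lonrf1, a ring finger protein, 0.33 ± 0.36.

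Of 41 immediate early genes, 3 were higher (7.32%) and 2 lower (4.88%), near the 6.29% and 2.95% of all genes, and the median was -0.01. Under all 3 scalings 0 of the higher and both lower genes met the rule. The lower genes were a transcription factor and an antiproliferative gene. Egr1 had medians of 12.99 on nonSP and 12.73 on SP arrays and was lower in 8 of 9 pairs by -0.36 ± 0.33, with 0.04 in A2C12 1. Its SP and nonSP arrays did not overlap in 2 of the 3 sets, but the share of all genes with such a separation was not counted. Btg2, also a p53 target, had the largest mean difference of any gene at exactly 8 of 9 pairs, -0.78 ± 0.84, with -2.55 in betaD5 2 and 0.33 in A2C12 2, and -0.60 without betaD5 2 and betaD5 3. Its 1 other probe set, taken whatever its level, had the opposite sign, with a mean of 0.03. Btg1, Dusp5 and Klf6 were higher by 0.23, 0.11 and 0.09.

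The gene of largest mean at 8 of 9 pairs on the higher side was Mid1, a microtubule-associated ubiquitin ligase, with 0.57 ± 0.47. Its 2 other probe sets, taken whatever their level, had means of 0.01 and -0.07. Just outside the rule, with 7 of 9 pairs, the largest were Csf2, a myeloid growth factor, with -0.74 ± 1.35, and Malat1 with -0.66 ± 0.51. Csf2 ranged from -3.55 in betaD5 2 to 1.28 in betaD5 3. For Malat1, 3 of 6 other probe sets had the same sign.

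The genes lower in SP included a growth factor, a transcription factor and matrix genes. Igf1, a growth factor, was lower in all 9 pairs by -0.47 ± 0.42, a ratio of 0.722, with medians of 9.04 on nonSP and 8.68 on SP arrays. Its pair differences ran from -0.07 in cRAF_cMYC 1 and betaD5 3 to -1.21 in betaD5 2, and all 3 other probe sets had a mean below 0. Nfix, a nuclear factor I transcription factor, was lower in 8 of 9 pairs by -0.47 ± 0.53, with -1.40 in betaD5 1 and -1.28 in betaD5 2, and all 4 other probe sets had a mean below 0. Of 31 stromal matrix genes 3 were lower (9.68%) and 0 higher, against 2.95% and 6.29% of all genes, and 6 had a mean above 0. The lower matrix genes were Mfap5, of microfibrils, with -0.30 ± 0.31, Col1a1 with -0.16 ± 0.16 and Sparc, a collagen-binding glycoprotein, with -0.16 ± 0.23. In sets A and C all arrays read 4.91 to 6.34 for Mfap5, below the mean of 6.53 needed for testing. For Sparc 0 of 2 other probe sets had the same sign, and for Mfap5 and Col1a1 the 1 other probe set did. The mean level of the list ran from 9.71 to 11.88 on nonSP and from 9.64 to 11.77 on SP arrays, and its mean difference was above 0 in 2 of 9 pairs. The part of these markers in other results was not tested. Fewer cells of a kind and less RNA per cell cannot be told apart in such samples.

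Of 11 Wnt genes tested, 3 were lower (27.3%) and 2 higher (18.2%), against 2.95% and 6.29% of all genes. Sfrp1, a secreted antagonist, was lower in 8 pairs by -0.29 ± 0.34, Ccn5 by -0.20 ± 0.17 and Porcn, which acylates Wnt ligands, by -0.16, while Ccn4 and Ctnnb1 were higher by 0.16 and 0.03. Other probe sets had the same sign in 3 of 4 cases for Sfrp1 and in 0 of 1 for Ccn4. In set C the arrays read 5.91 to 6.59 for Sfrp1, around the mean of 6.53 needed for testing. Further genes lower in all 9 pairs were the predicted genes G530011O06Rik (-0.42 ± 0.25) and 4921531C22Rik (-0.34 ± 0.23). So were Ttc14 (-0.35 ± 0.26, 4 of 9 other probe sets of the same sign), Fmo1, a flavin monooxygenase (-0.28 ± 0.21), Cercam (-0.26 ± 0.16) and Rras (-0.25 ± 0.15). Outside set A the arrays read 5.72 to 6.92 for Fmo1, around the mean of 6.53 needed for testing. Lag3, an immune checkpoint receptor, had -0.25 ± 0.22, Arrdc4, an arrestin-domain protein, -0.24 ± 0.19, Sohlh2, a germ cell transcription factor, -0.23 ± 0.17, and Pet100, an assembly factor of cytochrome oxidase, -0.22 ± 0.14. Genes with symbols starting with Nduf, mostly of respiratory complex I, were grouped after their values had been seen. Of 43 tested, 5 were lower (11.6%, against 2.95% of all genes), by -0.11 to -0.19, and 0 higher. Gstm1, a glutathione transferase, was lower by -0.33 ± 0.37, and Nfe2l2, the factor that induces such genes, was higher by 0.25 ± 0.41. The 1 other probe set of Nfe2l2 had a mean of -0.38, and all 3 of Gstm1 had a mean below 0.

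The efflux pump that defines the side population phenotype in many tissues met the rule with 8 pairs. Abcg2 had medians of 10.66 on nonSP and 10.93 on SP arrays, with minima of 8.50 and 8.32 and maxima of 10.88 and 11.54. It was higher in 8 of 9 pairs by 0.25 ± 0.24, a ratio of 1.19, and lower by -0.18 in A2C12 2. The set means were 0.06, 0.19 and 0.49. The SP and nonSP arrays did not overlap in 1 set, where the share of all genes was not counted. Without betaD5 2 and betaD5 3 the mean was 0.16 and 6 of 7 pairs were higher. Abcb1b was higher in 6 of 9 pairs by 0.22 ± 0.38, Abcb1a in 5 by 0.13 ± 0.48 and Abcc1 in 4 by -0.01 ± 0.10. Of 13 efflux transporters, Abcg2 was the 1 that met the rule, and the median was -0.01.

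The nonSP arrays were also compared between lines, a contrast other than that of the rule. Their levels enter the pair differences and the grouping into sets, so these values are not independent of the choice of members, and nothing is read from the members' shares. As deposited, limma called 5697 genes (52.2%) between A2C12 and the other lines, 323 higher and 5374 lower in A2C12. With centred arrays the calls were 1620 higher and 1806 lower, so the size of that imbalance depended on the scaling. Of the 687 genes higher in SP 396 were called (57.6%), and of the 322 lower genes 145 (45%). With centred arrays the shares were 33.0% and 30.7%, near the 31.4% of all genes. Abcg2 was lower in the A2C12 nonSP arrays than in those of the other lines (difference -2.19 log2 units, limma adjusted p = 5.08e-07), and so was Grpel2 (-1.65, limma adjusted p = 8.38e-05). Rrp12 differed by -1.38 (limma adjusted p = 0.000486). For Kdm3a, Ero1a and Ndrg1 the differences were -0.72, 0.38 and -0.77, with adjusted p of 0.0787, 0.39 and 0.104.

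**Figure D5:**
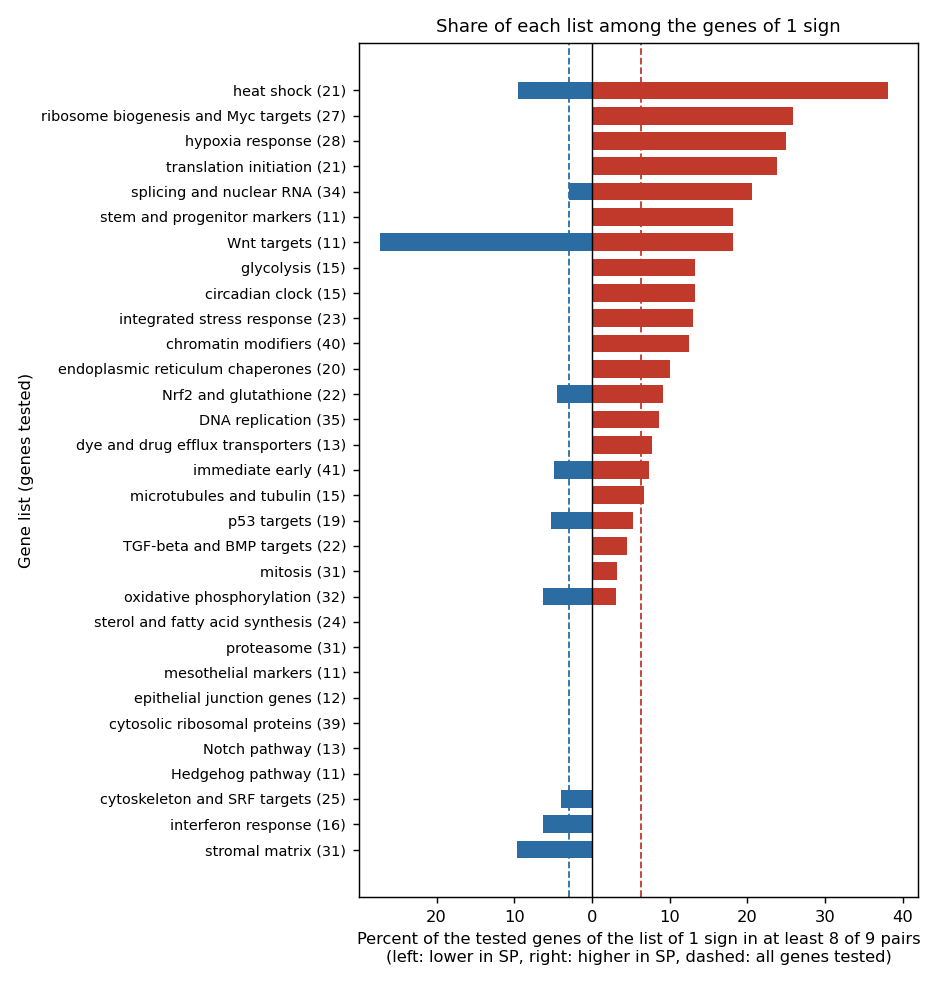
Percent of the tested genes of each list (horizontal axis, lists with at least 10 tested genes, number in brackets; groups made by symbol after their values were seen are not drawn) that were higher (red, right) or lower (blue, left) in SP in at least 8 of 9 pairs; dashed lines mark the 6.29% and 2.95% of all genes tested. Of the lists drawn, heat shock has the longest red bar, 38.1%, and Wnt targets the longest blue bar, 27.3%, which rests on 3 of 11 genes.

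Further lists held 0 to 3 members each. Of 31 mitosis genes 1 (3.23%), Ccnf, was higher, by 0.30 ± 0.35. Of 35 DNA replication genes 3 (8.57%) were, Cdc6, Rrm1 and Mcm4, by 0.21, 0.09 and 0.07. Over all genes tested 6.29% were higher. Of 31 proteasome genes, 24 of sterol and fatty acid synthesis, 13 of the Notch and 11 of the Hedgehog pathway, 0 were members. Markers of leukocytes (7 tested), endothelium (6), club and ciliated cells (4), mesothelium (11) and epithelial junctions (12) held 0 members. The mean level of the leukocyte markers ran from 5.86 to 6.91 on nonSP and from 5.86 to 6.77 on SP arrays, and that of the mesothelial markers from 6.45 to 10.19 and from 6.49 to 9.94. Of 11 stem and progenitor markers, Itga6 and Sox9 were higher, by 0.34 ± 0.77 and 0.22 ± 0.19, and Itga6 ranged from -0.89 in betaD5 3 to 2.06 in betaD5 2. In the circadian clock list Arntl was higher in all 9 pairs by 0.30 ± 0.18, from 0.03 in betaD5 1 to 0.56 in cRAF_cMYC 3, and Nfil3, a repressor of clock output, in 8 by 0.24 ± 0.21.

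Of 22 targets of TGF-beta and BMP tested, Skil, an inhibitor of Smad signalling, was higher by 0.21 ± 0.33 and 0 were lower, and of 19 p53 targets Mdm2, the ubiquitin ligase of p53, was higher by 0.17 ± 0.21 and Btg2 lower. Of 16 interferon genes Isg20, an exonuclease, was lower by -0.16 ± 0.15. In oxidative phosphorylation (32 tested) Atp5b was higher by 0.11 and Ndufa1 and Ndufv2 were lower by -0.13 and -0.14, and in glycolysis (15) Pgam1 and Slc2a1 were higher by 0.14 each. Myh9, a nonmuscle myosin, was the 1 lower gene of 25 cytoskeletal and SRF targets, by -0.09 ± 0.10, Mid1 the 1 higher of 15 microtubule genes, and H2az2 the 1 lower of 6 histones, by -0.12 ± 0.23. The 1 other probe set of H2az2 had a mean of 0.09. Of 8 alveolar type II markers Etv5, a transcription factor, was higher by 0.23 ± 0.22 and Muc1, a mucin, lower by -0.09 ± 0.19. Of 22 genes of the Nrf2 list, Srxn1, a sulfiredoxin, was also higher, by 0.16 ± 0.23. By symbol, after their values had been seen, genes starting with Usp, deubiquitinases, had 4 of 42 higher (9.52%) and 0 lower. Mitochondrial ribosomal proteins (Mrpl and Mrps), grouped in the same way, had 1 of 76 higher (1.32%) and 3 lower (3.95%). Of all genes tested 6.29% were higher and 2.95% lower.

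Gene length and promoter composition had not been used by the rule and are given as a description. The median span of the gene in the genome was 31.7 kb for the higher genes, 11.6 kb for the lower genes and 23.1 kb for all genes tested. In the third of genes with the shortest span, up to 13.5 kb, 3.28% were higher and 4.79% lower. In the third with the longest span 8.09% were higher and 1.76% lower. The median level was 9.59 for the higher, 9.19 for the lower and 9.23 for all genes. Promoters of the higher genes had a median GC content of 62.0% and 19 CpG sites, those of the lower genes 59.2% and 14, and those of all genes 60.4% and 16. Probe sets not used to choose the members were read as well, although they come from the same arrays. Of 594 other probe sets of 360 higher genes, 82.2% had a mean above 0, against 59.0% of all such probe sets, and of 177 of 109 lower genes 67.8% had a mean below 0, against 41.0%.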

How the data were processed

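RNA of SP and nonSP cells was labelled with a 3' IVT kit and hybridised to Affymetrix arrays, per the labels. The deposited values are log2 intensities per probe set, made by the authors with Affymetrix Expression Console, per the submitters' processing notes; its version, algorithm and normalization are not given in the sources used here. The log2 values were used as deposited. The number of arrays, not depth, limits the precision: the median 95% half-width of a mean difference was 0.132.

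Of 45101 probe sets, 64 controls, 932 with several symbols and 9160 without one were left out. A gene was its probe set of highest mean, named through gene identifiers (34741 matched). The 40% of genes of lowest mean were left out, and 10916 were tested. Tests used R 4.3.3 and limma 3.58.1 (trended eBayes, Benjamini-Hochberg over 10916 genes), with the pair as a block and 1 difference per set. Pairing rests on replicate numbers: deviations of partners from their group means correlated at 0.426 to 0.952 in all 9 pairs. The groups of betaD5 and cRAF_cMYC mix arrays of sets B and C, so there the correlation also carries the difference between sets. It does not show that partners came from the same culture or sort. Differences in nonSP levels were fitted without a block.

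The members, the 37 lists and the tests were chosen with earlier results of these data known. Named genes were the 10 largest of 9 of 9 pairs in each direction (predicted genes such as Rik clones passed over), up to 3 largest members per list, 4 efflux transporters, the 10 smallest p, the 2 largest at 8 and at 7 pairs and 4 of smallest p between sets. Others of a list are named with it, and further genes were chosen after their values were seen. Alternatives changed scaling, filter, probe set rule, pairs, block and covariates. Promoters are RefSeq windows of GRCm38.p6; the arrays' files name no build.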

Additional observations from a re-analysis of the deposited data

Results flagged for a closer look

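Rprd2, 1 of the 37 genes called for the mean over sets and named after its values were seen, had a mean difference of 0.32 in set B, where all 3 pairs were higher, and of -0.09 in set A, where all 3 were lower. The set A pairs differed by -0.20, -0.04 and -0.01. Their sign depended on the scaling: Rprd2 was higher in 6 of 9 pairs as deposited, and in 8 with quantile normalization and with centred arrays. Limma's F test between sets did not call it, as no gene passed after adjustment.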

How the results depend on the processing

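The counts of genes of 1 sign, 687 higher and 322 lower, turned on the settings. They were 441 and 591 with centred arrays, of which 365 and 267 were the same genes, and with quantile normalization 568 and 445. A total of 347 and 230 met the rule under all 3 scalings. Lower genes were 511 without a filter and 200 with 60% of genes left out. Every probe set with 1 symbol gave 1245 and 659. Leaving out each pair in turn (at most 1 exception among 8) gave 752 to 1110 and 430 to 651. Without betaD5 2 and betaD5 3 there were 1115 and 880, and, in an alternative chosen after seeing the data, 189 and 119 in 7 of 7 pairs. Without betaD5 1 and cRAF_cMYC 3 there were 1222 and 727. A rule of 9 of 9 pairs gave 107 and 36, of 7 of 9 pairs 1809 and 1203, and differences over 0.1 in size 66 and 17.

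The 37 calls for the mean became 6 with quantile normalization, 7 with centred arrays, 17 with 60% left out, 19 with the mean of probe sets, 95 with every probe set and 67 with robust eBayes. Leaving out each pair gave 0 to 286: 286 without betaD5 3, 80 without A2C12 1, 7 without cRAF_cMYC 1, 2 without betaD5 2 and 0 (1270 to 1694 unadjusted) without any 1 of the other 5. Limma's calls were 0 without betaD5 2 and betaD5 3, without betaD5 1 and cRAF_cMYC 3, with the 3' to 5' ratio as a covariate, and with labelled lines or 1 common difference in place of sets and the replicate block kept, where 1362, 1389, 1608, 1437 and 1450 genes had an unadjusted p under 0.05. They were also 0 with no replicate block (70 unadjusted with sets, 36 with lines). A difference between sets was called for 1 gene, Col14a1, with quantile normalization and for the same 1 with centred arrays. Calls on nonSP levels of A2C12 were 3500 and 3426 under these scalings. The cause was not tested.

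Of 109 named genes, 3 turned: Canx to -0.01 with centred arrays, Nfe2l2 to -0.06 and Sfpq to -0.02 with the mean of probe sets. The share of genes chosen in 2 sets that kept their sign in the third was 58.2%, and 59.1% and 57.1% under the other scalings. Of all genes as deposited, 41.4% to 58.6% had that sign, by set and direction, and for genes chosen as lower and read in set B the share was below that of all genes, 45.8% against 49.5%.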
